A study of Mus musculus with 6 samples.

Results

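Genes of endoplasmic reticulum (ER) chaperones, disulfide isomerases, ER-associated degradation (ERAD), the translocon and the sensors of the unfolded protein response were followed in fasted mouse liver with and without Creb3l3. A list of 42 genes was matched by symbol to the array tables. Of these, 41 had at least 1 probe, 67 probes in all among the 45281 probes and 30869 symbols of the array. After a filter on dim probes, 46 probes of 33 members were measured. None of the 33 passed the test for a difference between genotypes. Livers came from 6 male C57BL/6 mice on normal chow that were fasted for 24 h, 3 wild type and 3 carrying the genotype Creb3l3 KO, described as littermates, each with 1 Illumina WG-6 bead array. The age of the mice, the deleted part of Creb3l3 and whether the deletion was confined to liver are not given in the sources used here. Whole liver was profiled, so fewer cells of a type and less RNA per cell cannot be told apart.

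Secreted and membrane proteins enter the ER through the Sec61 channel and are folded there by the chaperone BiP (Hspa5), by lectin chaperones and by disulfide isomerases. Proteins that fail to fold are pulled back into the cytosol by ERAD and degraded. When unfolded proteins accumulate, the sensors IRE1 (Ern1), PERK (Eif2ak3) and ATF6 raise the expression of chaperone and ERAD genes, through spliced Xbp1 and cleaved ATF6, while PERK slows translation. Hepatocytes carry a heavy secretory load of plasma proteins. Creb3l3 encodes CREBH, an ER-anchored transcription factor of hepatocytes that is released by the same proteases as ATF6. The comparison asks whether transcripts of this folding machinery differ in fasted liver when that factor is missing.

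Some of the promoters hold the ER stress response element (ERSE), a sequence through which ATF6 and XBP1 are known to act. It was searched as CCAAT and CCACG with 9 bases of any kind between them, on both strands of RefSeq promoter windows (assembly GRCm38.p6), which run from 250 bases before to 50 bases after each annotated start. A promoter was found for 37 of the 42 members. The element was present in 10 of the 37 members, 27.0%, and in 37 of all 27025 genes with a promoter, 0.137%, the 10 members included. The list was drawn up around the unfolded protein response, in which these factors act, so the contrast between these shares is no test. The related element ERSE-II, searched as ATTGG and CCACG with 1 base between them, was present in 2 members, Herpud1 and Dnajb11, and in 0.0444% of genes. Its ATTGG and CCACG boxes are those of ERSE with a shorter spacer and the first box turned. TGACGTGG, the core of the XBP1-binding unfolded protein response element, was present in 1 member, Vcp, and in 0.714% of genes. The palindrome TGACGTCA of cAMP response elements was present in 0 members and in 2.03% of genes. The windows below show the element in both orientations, with 20 bases on each side, on the strand of the gene. They are given for 6 of the 10 measured members with an element, whose values follow. Those of Dnajc3, Ero1lb, Syvn1 and Dnajb11 are not shown. Herpud1 holds ERSE-II and the others ERSE. Capitals mark the letters of the motif that are fixed, and the spacer between them is in lower case.
Hspa5 (chr2:34772005-34772063, plus strand): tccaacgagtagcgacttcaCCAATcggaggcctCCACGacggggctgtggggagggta
Hsp90b1 (chr10:86705513-86705571, minus strand): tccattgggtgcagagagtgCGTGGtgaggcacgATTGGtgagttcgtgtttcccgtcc
Calr (chr8:84847055-84847113, minus strand): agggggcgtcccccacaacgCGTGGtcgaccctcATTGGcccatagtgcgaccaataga
Pdia6 (chr12:17266471-17266529, plus strand): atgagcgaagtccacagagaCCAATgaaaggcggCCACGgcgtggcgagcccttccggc
Creld2 (chr15:88819500-88819558, plus strand): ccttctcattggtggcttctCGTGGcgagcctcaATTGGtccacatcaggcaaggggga
Herpud1 (chr8:94386357-94386407, plus strand): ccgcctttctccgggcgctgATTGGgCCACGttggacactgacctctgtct

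**Figure D1:**
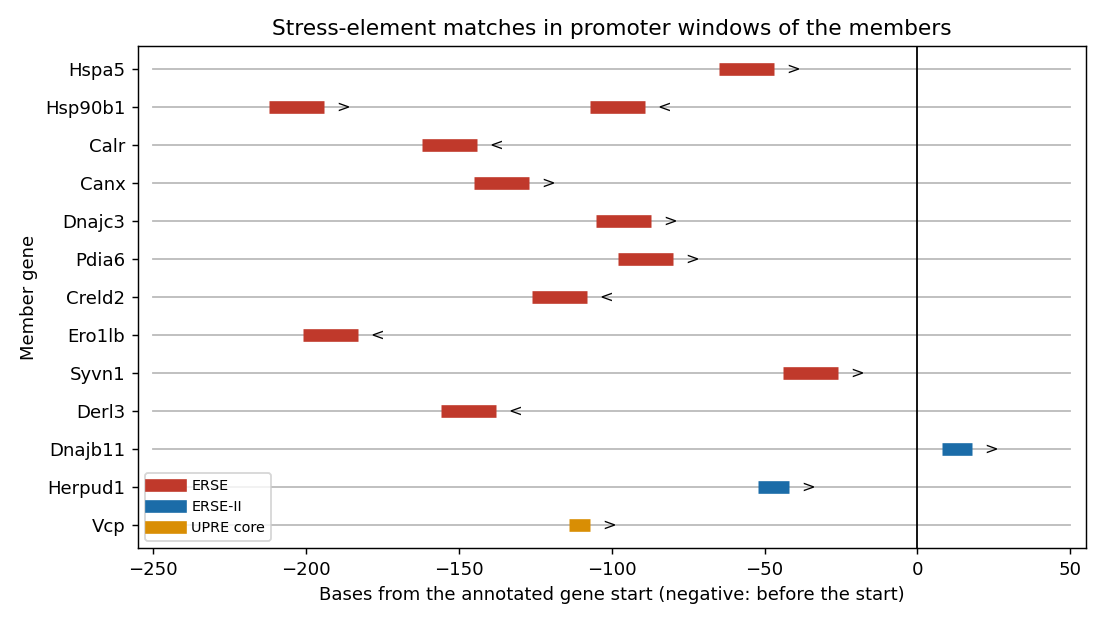
Positions of ERSE, ERSE-II and unfolded protein response element core matches in the promoter windows of the 13 members that hold any. The x axis is the distance in bases from the annotated start, and > or < beside a bar gives a match as written or as its reverse complement. Hsp90b1 holds 2 matches, and the match of Dnajb11 lies 8 to 18 bases after the start.

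Among these matches the element of Hspa5 lay 65 to 47 bases before the start and that of Pdia6 98 to 80 bases before it. Hsp90b1, the lumenal member of the HSP90 family, carried 2 copies, of which the nearer is shown. A match describes letters only. Hyou1, Manf, Derl1, Sec61a1 and Ssr2 were not in the promoter table.

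The arrays differed in brightness, and that of knockout replicate 3 stood apart. Deposited signals averaged 219 to 252 arbitrary units on the wild-type arrays, and 149, 246 and 87.3 on those of knockout replicates 1, 2 and 3. Of the 67 member probes, 47 to 51 were detected on the wild-type arrays (detection p under 0.05), and 44, 47 and 25 on the knockout arrays. Across probes, Pearson's r between the normalized array of knockout replicate 3 and any other was 0.676 to 0.697, and between the other 5 up to 0.993. Its array was left out, and values with all 6 arrays are given where results are counted. Of the hepatocyte markers, 5 of 6 were detected on each of the other 5 arrays and Tat was not above background on 3 of them. Of 30 markers of Kupffer cells, endothelium, stellate cells, cholangiocytes, lymphocytes and acinar pancreas, 13 could be tested, among them 0 of lymphocytes and 1 of acinar pancreas, and 0 were called. Of the 4 tested Kupffer cell markers, Emr1 and Cd68 had log2 changes of 0.69 and 0.47 (limma adjusted p = 0.219 and 0.445). Clec4f and Csf1r stood at 0.04 and 0.001, so the markers did not move alike. Of the tested stellate cell markers, Reln stood at -0.48 and Dcn at 0.13 (limma adjusted p = 0.366 and 0.756). Sox9 and Spp1 of cholangiocytes stood at 0.36 and 0.18, and the 4 tested endothelial markers ran from -0.13 to 0.27. The part of Kupffer cells or of these other types in the results was not tested. The Creb3l3 probe read 1201, 949 and 929 on the wild-type arrays and 148, 283 and 87.9 on the knockout arrays before normalization. Without knockout replicate 3 its log2 change was -2.32 ± 0.15 (SE), 4.99-fold lower (limma adjusted p = 0.00271; 0.574 with all 6 arrays and 0.175 under median scaling). The position of its probe relative to the deletion is not given, so whether it checks the genotype is not known.

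**Figure D2:**
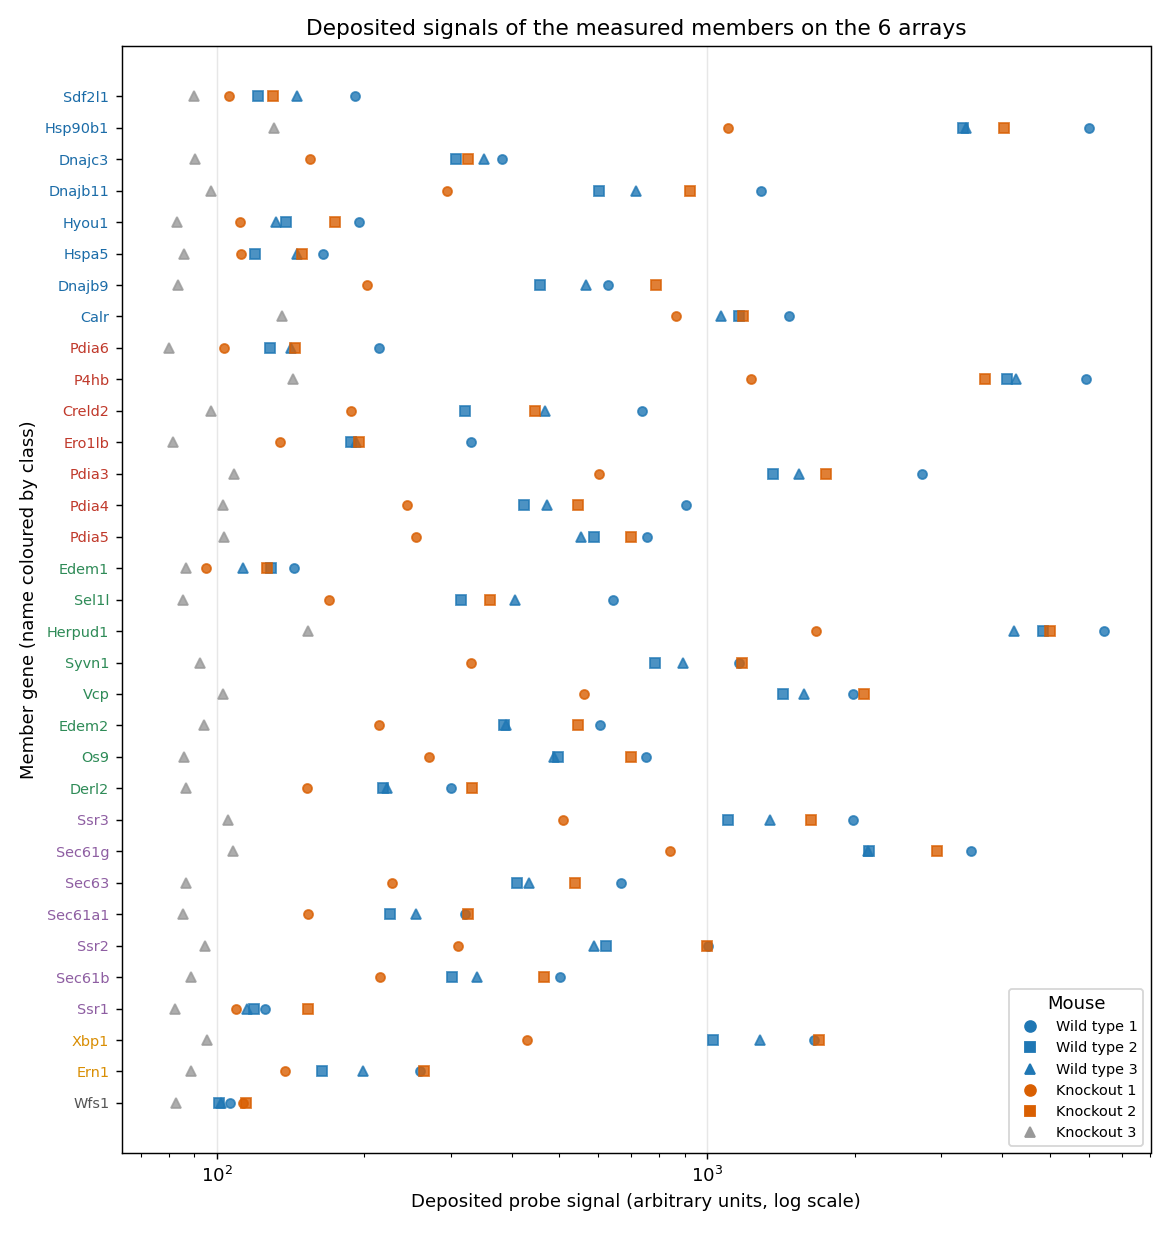
Deposited signal of each of the 33 measured members on the 6 arrays, on a log axis in arbitrary units, with wild type in blue, knockout replicates 1 and 2 in orange and knockout replicate 3 in grey. Knockout replicate 3 lies lowest for every member, and knockout replicate 1 lies below the 3 wild-type arrays for 32 of 33, all but Wfs1.

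Between knockout replicates 1 and 2 and the 3 wild-type mice, 0 of the 33 measured members were higher and 0 were lower at a limma adjusted p under 0.05, where 0.336% of all 10432 genes were called, 0.0671% higher and 0.268% lower (of probes, 0.0627% and 0.279%). The smallest adjusted p of a member was 0.313. At an unadjusted p under 0.05, 2 members were higher (Ssr1 and Wfs1) and 2 lower (P4hb and Edem1), where 4.84% of all genes were higher and 7.09% lower. The groups did not overlap for 5 members that lay higher (Derl2, Sec61a1, Ssr1, Ern1 and Wfs1) and 5 that lay lower (Hsp90b1, Dnajc3, Sdf2l1, P4hb and Sel1l), where 13.8% and 15.5% of all genes did so. These shares of the members were 15.2% in each direction, near the background. With all 6 arrays 0 of 33 were called, 0% of all genes were, and the smallest adjusted p of a member was 0.653. The median log2 change over the members was 0.01, beside -0.02 over all genes.

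The intervals show what sizes these arrays could bound. The 95% interval of a member's log2 change had a median half-width of 0.47, from 0.35 to 0.75. For 27 of 33 members it lay within 1 log2 unit of 0, a 2-fold difference, and for 12 it lay within a 1.5-fold difference. It reached below -1 for 4 members (Sdf2l1, Pdia6, Edem1 and Sel1l) and above 1 for 2 (Calr and Wfs1). The number of arrays limits this precision, and the intervals do not cover the choice of arrays or of normalization. P4hb and Dnajb9 are among the 27. Under median scaling P4hb stood at -1.19, where all genes stood at -0.44. With all 6 arrays Dnajb9 stood at -1.35 ± 1.16 (SE), where all genes stood at -0.25.

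**Figure D3:**
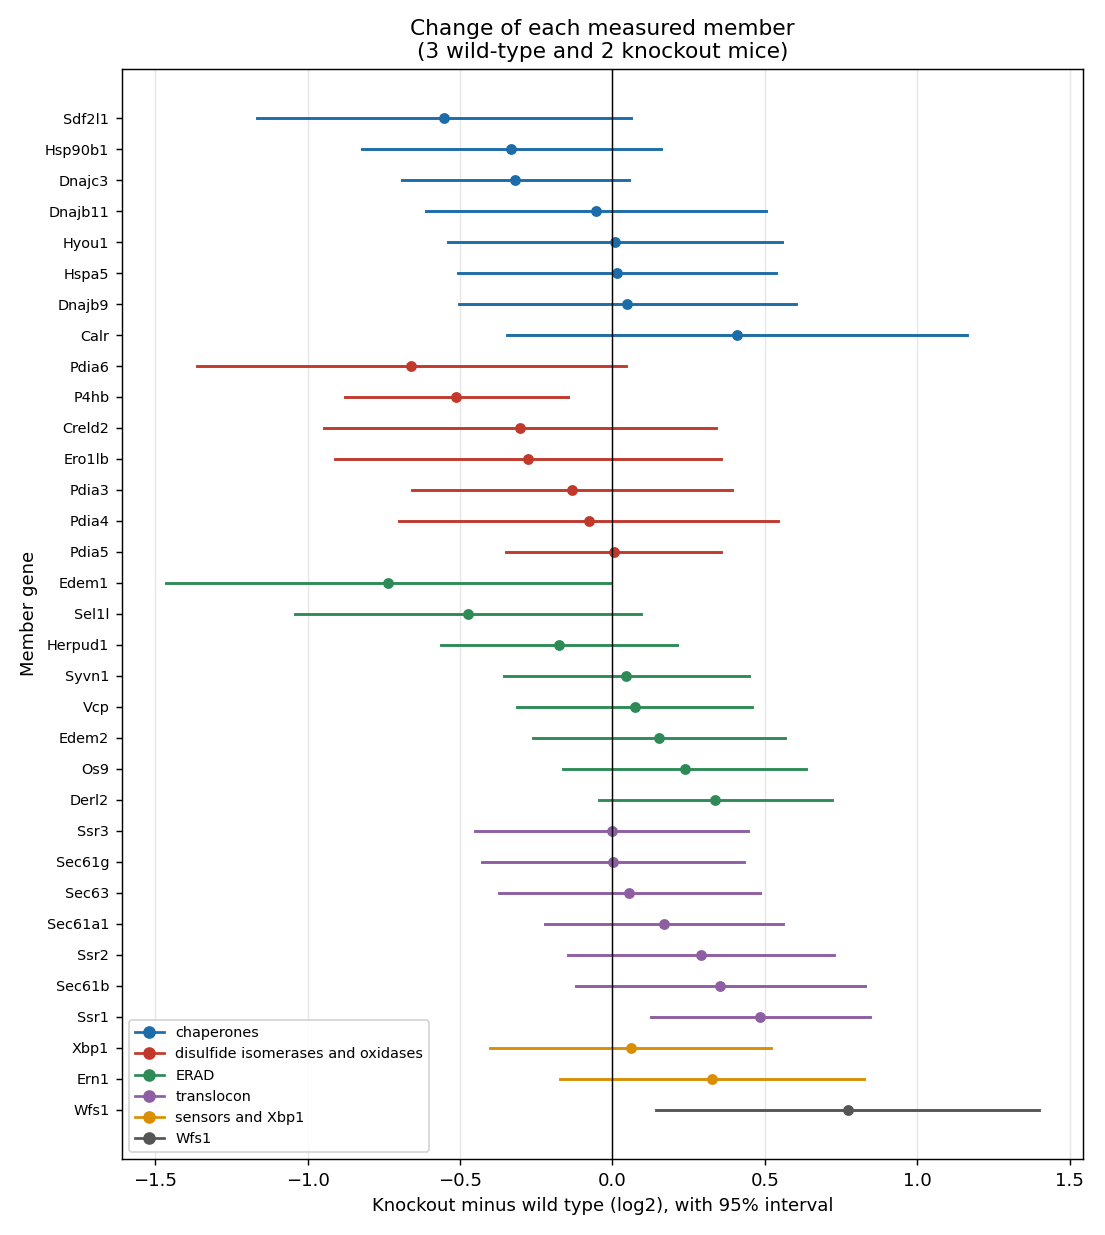
Log2 change (knockout minus wild type) of each of the 33 measured members, points with 95% intervals, ordered within classes, from 3 wild-type and 2 knockout mice. Intervals of 29 members span 0, and none of the 33 passed adjustment over all probes.

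The chaperones had 8 measured members of 10, of which 4 lay above 0 and 4 below, with a median log2 change of -0.02 and a range of -0.55 to 0.41. Hspa5, which binds unfolded chains and holds the stress sensors inactive, read 6.18, 5.55 and 6.18 on the normalized log2 scale for the wild-type mice, in the order of their replicate numbers. In knockout replicates 1 and 2 they were 6.05 and 5.92, inside the range of the wild-type mice. Its log2 change was 0.02 ± 0.23 (SE), with an interval of -0.51 to 0.54 (limma adjusted p = 0.983). Before normalization its probe read 165, 120 and 146 in wild type and 112 and 149 in the knockout. The median signals of these arrays were 91.5 to 95.02, so the probe was dim, though it was detected on each of them. The interval is that of this dim probe.

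Hsp90b1 (GRP94) stood at 12.18, 11.63 and 11.67 in wild type and at 11.37 and 11.61 in the knockout. The groups did not overlap, by 0.02 between their nearest mice, and wild-type replicate 1 lay well above the rest. The log2 change was -0.33 ± 0.21 (SE; limma adjusted p = 0.547). On the deposited scale knockout replicate 2, with 4026, lay above wild-type replicates 2 and 3, with 3321 and 3374, and the groups overlapped.

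Dnajc3 (P58IPK), a co-chaperone of BiP, stood at 7.87, 7.85 and 8.09 in wild type and at 7.62 and 7.61 in the knockout. Both knockout values lay below all 3 wild-type ones, and the log2 change was -0.32 ± 0.16 (SE; limma adjusted p = 0.469). Sdf2l1, which keeps BiP substrates soluble and is among the most inducible stress genes, stood at 6.54, 5.59 and 6.18 against 5.56 and 5.55. Its wild-type mice spread over 0.95 log2 units, and wild-type replicate 2 lay next to the knockout mice. The log2 change was -0.55 ± 0.27 (SE; limma adjusted p = 0.451), and with all 6 arrays 0.06, or 0.32 relative to all genes. Without wild-type replicate 1 it was -0.32. The probe was dim, with deposited signals of 106 to 192 on the 5 arrays.

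Dnajb9 (ERdj4), an Xbp1-dependent co-chaperone, stood at 8.71, 8.55 and 8.91 in wild type and at 8.40 and 9.14 in the knockout. The knockout mice lay on either side of the wild-type ones, and the log2 change was 0.05 ± 0.24 (SE; limma adjusted p = 0.95). Its second probe stood at 0.10. Calr, the calcium-binding lectin chaperone of the lumen, stood at 10.04, 10.05 and 9.91 against 11.04 and 9.78. The 3 wild-type mice agreed within 0.13, while knockout replicate 1 lay above them and knockout replicate 2 below. The log2 change was 0.41 ± 0.33 (SE; limma adjusted p = 0.63). With knockout replicate 1 alone it was 1.05 and with knockout replicate 2 alone -0.22, so the direction differed between the knockout mice. In such a fit the lone mouse is assumed to vary like the other group. On the deposited scale the array of knockout replicate 1, the dimmer one, gave Calr 865, below 1468, 1161 and 1069 in wild type. Calr was named after its values were seen.

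The disulfide isomerases and oxidases, which form and rearrange disulfide bonds, had 7 measured members of 8. Of these 6 lay below 0 and 1 above, with a median log2 change of -0.28 and a range of -0.66 to 0.004, and 0 were called. Under median scaling the class median was -0.88, with a median of -0.44 over all genes, and with all 6 arrays it was -0.07, where all genes stood at -0.25, so relative to all genes it then lay at 0.18. Without wild-type replicate 1 the class median was -0.02.

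P4hb, the canonical isomerase PDI, had the smallest p of all members. It stood at 12.16, 11.95 and 11.98 in wild type and at 11.53 and 11.51 in the knockout. Both knockout mice lay below all 3 wild-type mice, by 0.42 or more. The means were 12.03 ± 0.11 (SD, n = 3) and 11.52 ± 0.01 (SD, n = 2), a log2 change of -0.51 ± 0.16 (SE) or 1.43-fold lower, which did not pass (limma adjusted p = 0.313). Over 16 other settings it ran from -1.19 to -0.45, with adjusted p from 0.0675 to 0.868. Before normalization it read 5933, 4084 and 4259 against 1227 and 3685. Both lay below wild type on that scale, but knockout replicate 1, the dimmer array, did so for 32 of 33 members.

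Pdia6 stood at 6.79, 5.79 and 6.10 in wild type and at 5.30 and 5.84 in the knockout. Knockout replicate 2 fell inside the wild-type range, and the log2 change was -0.66 ± 0.31 (SE; limma adjusted p = 0.44). It was -0.36 without wild-type replicate 1 and -0.40 without knockout replicate 1. The probe was dim, with deposited signals of 103 to 215 on the 5 arrays. Creld2, a stress-induced protein with isomerase activity, stood at 8.95, 7.94 and 8.59 against 8.19 and 8.19. Both knockout values lay within the range of 1.01 that the wild-type mice spanned, and the log2 change was -0.30 ± 0.28 (SE; limma adjusted p = 0.678). Pdia5 had 3 probes, at 0.004, 0.06 and -0.60. The last was not detected on knockout replicate 1, and none passed.

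ERAD genes had 8 measured members of 11, 5 above 0 and 3 below, with a median log2 change of 0.06 and a range of -0.74 to 0.34. Leaving out 1 mouse, that median ran from -0.08 (without knockout replicate 2) to 0.15 (without knockout replicate 1), and it was -0.006 without wild-type replicate 2. Edem1, a lectin that marks misfolded glycoproteins for degradation, stood at 5.84, 5.80 and 5.33 in wild type and at 4.38 and 5.46 in the knockout. It was detected on 1 of the 2 knockout arrays, since knockout replicate 1 gave a detection p of 0.307, and knockout replicate 2 lay within the wild-type range. The log2 change was -0.74 ± 0.32 (SE; limma adjusted p = 0.407). With knockout replicate 1 alone it was -1.20, and with knockout replicate 2 alone -0.21. The first of these rests on a knockout value not above background, so it is only a bound. In that fit the probe passed the filter through the wild-type arrays alone.

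Sel1l, the scaffold of the HRD1 ubiquitin ligase complex, stood at 8.74, 7.90 and 8.36 against 7.89 and 7.82. The knockout mice lay below all wild-type mice, by 0.0016 at the nearest, from wild-type replicate 2. Its log2 change was -0.47 ± 0.25 (SE; limma adjusted p = 0.478), and its dimmer probes stood at -0.32 and -0.11. The change was -0.27 without wild-type replicate 1 and -1.47 ± 0.85 (SE) with all 6 arrays. In the latter fit all genes stood at -0.25, and the probe was not detected on knockout replicate 3 (detection p of 0.270). Derl2, a channel component of ERAD, stood at 7.44, 7.16 and 7.21 in wild type and at 7.56 and 7.66 in the knockout. Both knockout mice lay above the 3 wild-type mice, and the log2 change was 0.34 ± 0.17 (SE; limma adjusted p = 0.46). With all 6 arrays it was -0.40, or -0.15 relative to all genes. Herpud1, an ER membrane protein that joins the HRD1 complex, had log2 changes of -0.18 and -0.16 at its probes. Edem2 had 4 tested probes, at 0.15, 0.55, 0.43 and -0.30 from the 1 that stands for the gene onwards, so its probes did not share a direction.

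The translocon and its associated TRAP subunits, which bring proteins into the ER, had 7 measured members of 8. Of these 6 lay above 0 and 1 below, with a median log2 change of 0.17 and a range of -0.002 to 0.48, and 0 were called. Relative to the median of all genes the class median stood at 0.19 here and at 0.19 with all 6 arrays, but at -0.03 under median scaling. Sec63 had 3 tested probes, at 0.06 for the brightest, -0.25 and -0.24.

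Ssr1, the alpha subunit of TRAP, stood at 5.43, 5.53 and 5.40 in wild type and at 5.88 and 6.00 in the knockout. Both knockout mice lay above all wild-type mice. The log2 change was 0.48 ± 0.16 (SE; limma adjusted p = 0.324). With all 6 arrays it was -0.05, which is 0.21 above the median of all genes in that setting. Before normalization this probe read 126, 119 and 115 in the wild-type mice against 110 and 153 in the knockouts. On the dim array of knockout replicate 1 the raw value thus lay below wild type. The probe itself was dim, and the other probes under the symbol Ssr1 were detected on no array. Sec61b, a small subunit of the channel, had a log2 change of 0.35 ± 0.20 (SE; limma adjusted p = 0.508), and its second probe 0.43. Ssr2, the beta subunit of TRAP, stood at 0.29 ± 0.19 (SE; limma adjusted p = 0.553).

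Among the sensors, Ern1 (IRE1), the kinase and ribonuclease that splices Xbp1 mRNA, stood at 7.17, 6.50 and 6.96 in wild type and at 7.18 and 7.23 in the knockout. The knockout mice lay above all wild-type mice, by 0.0075 above wild-type replicate 1. Its log2 change was 0.33 ± 0.22 (SE; limma adjusted p = 0.558). Xbp1 stood at 10.23, 9.85 and 10.19 against 9.95 and 10.35. The groups overlapped, and the log2 change was 0.06 ± 0.20 (SE), with an interval of -0.40 to 0.52 (limma adjusted p = 0.921). Whether its probe separates the spliced from the unspliced mRNA is not known here. Eif2ak3 (PERK) was not measured, since its 2 probes were each detected on fewer than 3 arrays.

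Wfs1, an ER membrane protein whose loss causes Wolfram syndrome, had the highest log2 change of the members. It stood at 4.86, 4.82 and 4.88 in wild type and at 6.12 and 5.13 in the knockout, with both knockout mice above all wild-type mice. The log2 change was 0.77 ± 0.27 (SE; limma adjusted p = 0.356). With knockout replicate 1 alone it was 1.22 and with knockout replicate 2 alone 0.31. The unnormalized probe read 107, 101 and 102 in the wild-type mice against 113 and 115 in the knockouts, on arrays with median signals of 91.5 to 95.02, so the probe lay near background.

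The remaining 9 members gave no value for the comparison. Canx, Ero1l, Edem3, Derl1, Derl3, Sec62, Eif2ak3 and Nucb2 had 12 probes with deposited signals of 83.1 to 108 on the 5 arrays, and none of the 12 was detected on 3 arrays. Manf had no probe under that symbol. The 1 probe listed under its older name Armet gave 91.8, 92.7 and 95.3 in wild type and 103 and 97.0 in the knockout, and did not pass the filter either.

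The members varied together between the wild-type mice. Wild-type replicate 1 was the highest of the 3 wild-type mice for 26 of 33 members, where it was so for 35.8% of all genes. Its signal exceeded the mean of the other wild-type mice by a median of 0.37 log2 units over the members and of 0.01 over all genes. The class medians of that difference were 0.68 for isomerases and oxidases, 0.42 for chaperones, 0.37 for the translocon, 0.32 for Ern1 and Xbp1 and 0.26 for ERAD. All 7 isomerases and oxidases and 7 of 8 ERAD genes were highest in that mouse among the wild types. For chaperones the number was 4 of 8, with Calr, Dnajb9, Dnajc3 and Hspa5 as the exceptions. These counts were made after the values were seen and carry no test.

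The members with large differences in wild-type replicate 1 can be shown by mouse. Pdia4, an isomerase, stood at 9.29 in that mouse and at 8.42 and 8.61 in the other wild types, with 8.87 and 8.52 in the knockout. Pdia3 (ERp57), which works with the lectin chaperones, stood at 10.99, 10.27 and 10.49, with 10.51 and 10.40 in the knockout. Dnajb11 (ERdj3) stood at 9.83, 9.02 and 9.29, with 9.26 and 9.39. For these 3, and for Creld2 and Hyou1, the knockout mice fell between the wild-type extremes. Other members with large differences went otherwise. Knockout replicate 1 lay below all wild-type mice for Pdia6, where the difference of wild-type replicate 1 was 0.85, and knockout replicate 2 did so for Ero1lb, where it was 0.76. Both knockout mice did so for Sdf2l1 and Sel1l. The spread among the 3 wild-type mice exceeded the size of the genotype difference for 26 of the 33 members. The share over all genes was not taken, so this count does not set the members apart. The median of that spread was 0.41 log2 units over the members and 0.27 over all genes.

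The array of wild-type replicate 1 was the brightest of all, with a mean deposited signal of 252, and its part in the pattern was not tested. Knockout replicate 2, with a mean of 246, had a median deviation over the members of 0.03 from the 5-mouse mean, where wild-type replicate 1 had 0.21 and wild-type replicate 2 -0.20. Under cyclic loess wild-type replicate 1 was the highest for 27 of 33 members, beside 34.9% of all genes. Under median scaling the numbers were 33 of 33 and 71.3%, and with no background correction 26 of 33 and 35.8%. Without that mouse the median log2 change of knockout minus wild type over the members was 0.13.

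**Figure D4:**
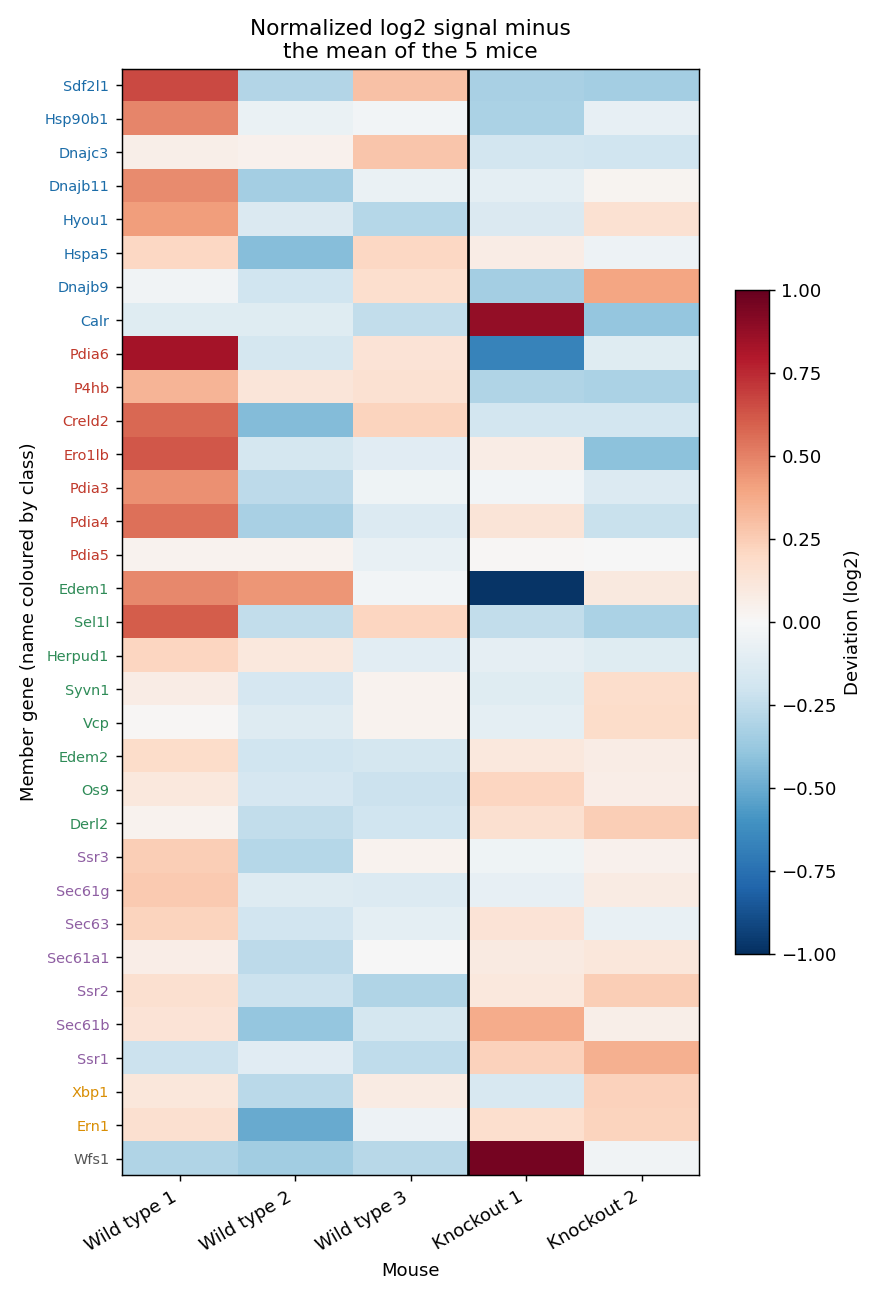
Normalized log2 signal of each measured member in each mouse, as its deviation from the mean of the 5 mice (red above, blue below), with wild type to the left of the line. The column of wild-type replicate 1 is red for most members, while Calr and Wfs1 are highest in knockout replicate 1 and Edem1 is lowest there.

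**Figure D5:**
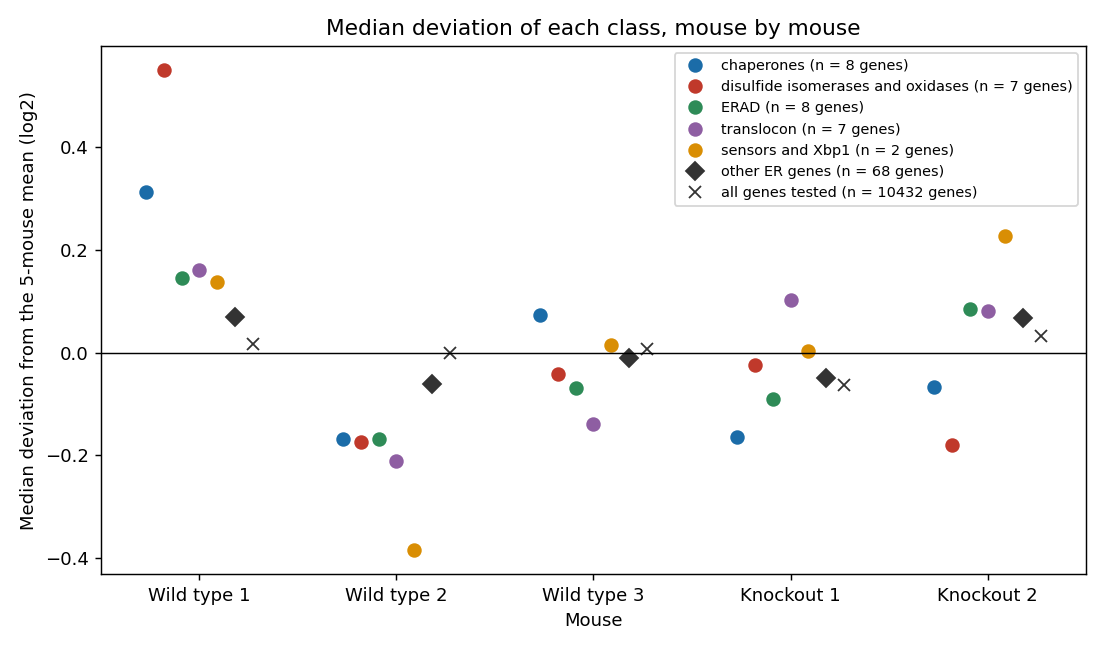
Median deviation from the 5-mouse mean (log2) of each class in each mouse, with the 68 other ER genes and all 10432 genes tested. In wild-type replicate 1 the isomerases and oxidases stand at 0.55 and the chaperones at 0.31, beside 0.07 for other ER genes and 0.02 for all genes.

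The promoter element can be set beside these values. Of the 12 members with ERSE or ERSE-II, 10 were measured, 3 above 0 and 7 below, with a median log2 change of -0.23 and a range of -0.66 to 0.41. Of the 25 members with a promoter and neither element, 20 were measured, 13 above 0 and 7 below, with a median of 0.05 and a range of -0.74 to 0.77. In both lists 0 were called, and the difference between them was not tested. Wild-type replicate 1 exceeded the other wild-type mice by a median of 0.42 in the first list and 0.33 in the second. It was the highest wild-type mouse for 7 of 10 in the first and 16 of 20 in the second, beside 35.8% of all genes. The 2 measures thus did not order the lists alike. ERSE occurred in 27 genes that are not members, of which 3 were measured under their current symbols and 0 were called. These were Acacb, Acnat2 and Alg12.

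A further 91 ER genes were listed to cover folding enzymes, glycosylation, targeting and signal peptidase, further ERAD components and signalling, of which 68 were measured. By limma 0 of them were called in either direction, where 0.336% of all genes were called. With all 6 arrays 0 were called as well, and 0% of all genes. An unadjusted p under 0.05 was reached by 3 of the 68 that stood higher and 3 that stood lower. Over all genes 4.84% and 7.09% did so, and these counts do not set the list apart. Of the 68, 33 lay above 0 and 35 below, with a median log2 change of -0.003. Tor1a, an ATPase of the ER lumen, had the smallest p. It stood at 7.86, 8.20 and 8.32 in wild type and at 7.48 and 7.14 in the knockout, with no overlap. Its log2 change was -0.82 ± 0.20 (SE; limma adjusted p = 0.216). With all 6 arrays it was -1.53 ± 0.63 (SE), where all genes stood at -0.25. The Tor1a probe was not detected on knockout replicate 3 (detection p of 0.214). Srprb, the beta subunit of the signal recognition particle receptor, stood at 0.51 ± 0.16 (SE; limma adjusted p = 0.314). Ufd1l, a cofactor of the ERAD ATPase Vcp, stood at -0.64 ± 0.25 (adjusted p = 0.386). It was not detected on knockout replicate 1 (detection p of 0.564), and without that mouse it stood at -0.26. Erlin1 stood at 0.51 ± 0.20 (adjusted p = 0.393). Wild-type replicate 1 was the highest wild-type mouse for 37 of these 68 genes, 54.4%, beside 78.8% of the members. The share was not alike across them: 11 of 14 genes of targeting and signal peptidase, 78.6%, but 2 of 11 of signalling, 18.2%. The pattern in wild-type replicate 1 was thus not limited to the members.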

How the data were processed

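Each array table gives the deposited average bead signal per probe, an intensity on a linear scale that per the file headers is not normalized, and a detection p-value per probe from the authors' software (BeadStudio 3, per the submitters' processing notes). The deposited value table of the series holds intensity values on a linear scale, not centred by gene, normalized by a method not given in the sources used here, with column medians of 91.6 to 91.7. Its columns for wild-type replicates 2 and 3 are exchanged relative to the array tables (Spearman correlation of 1 with the other array and 0.772 with its own), and it served as an alternative only.

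The 5 arrays without knockout replicate 3 were normalized together by the neqc function of limma 3.58.1 (R 4.3.3), which subtracts background by normexp, using negative controls inferred from detection p-values and an offset of 16, and then applies quantile normalization and log2. A probe was tested if its detection p lay below 0.05 on 3 or more of the arrays, which held for 14345 probes of 10432 symbols. Linear models (lmFit, eBayes) contrasted the genotypes with no covariate. P-values were adjusted across the tested probes by Benjamini-Hochberg, and a call needed an adjusted p below 0.05. A gene stood by its tested probe with the highest mean signal, under the symbol in the files. Replicates are separate animals, and the number of arrays limits precision. The fit and the motif search were tested on simulated data. Figures were drawn with matplotlib 3.10.9.

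The members, the lists, the named genes and leaving out knockout replicate 3 were chosen with earlier results of these data known. Named were Creb3l3, the 3 members of each class with the smallest p, Hspa5, Hsp90b1, Xbp1, Ern1, Eif2ak3, Sdf2l1, Creld2, Herpud1, Dnajb9, Wfs1 and Nucb2, and the 4 other ER genes with the smallest p. Other members were named after their values were seen. Alternatives covered the arrays used, normalization, background, filter, variance model, array weights, the value table, replicate blocks and the probe for a gene.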

Additional observations from a re-analysis of the deposited data

How the results depend on the processing

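Over every setting run but 1, members called were 0 higher and 0 lower. Members were called only without knockout replicate 2, where Calr stood at 1.05, Wfs1 at 1.22 and Edem1 at -1.20. These calls rest on knockout replicate 1, the dimmer array, as the only knockout mouse, and Edem1 was not detected on it. That fit also called the most probes over the whole array of any setting, so calls in it do not set the members apart. Over all probes, 9 higher and 40 lower calls became 0 and 0 with all 6 arrays, 0 and 4 under median scaling, 0 and 1 with no filter on dim probes, 21 and 68 without background correction, 30 and 92 with trended and robust variance, and 18 and 65 with the value table. Cyclic loess gave 25 higher, array weights 26 lower, and the exchanged block 15 higher. Leaving out 1 mouse gave 1 to 787 higher and 7 to 1447 lower, the highest without knockout replicate 2, where other ER genes had 3 higher and 7 lower.

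With all 6 arrays the median log2 change was -0.17 over members, -0.32 for chaperones, -0.34 for ERAD, -0.060 for the translocon and -0.25 over all genes. Under median scaling these were -0.71, -0.73, -0.69, -0.47 and -0.44, with -0.88 for isomerases and oxidases and -0.48 for Ern1 and Xbp1. Leaving out 1 mouse, chaperones ran from -0.23 to 0.082, ERAD from -0.081 to 0.15 and all genes from -0.054 to 0.028.

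Signs turned as follows, on the log2 scale. With all 6 arrays, Hspa5 stood at -0.36, Dnajb9 at -1.35, Sdf2l1 at 0.064, Creld2 at 0.21, Derl2 at -0.40, Sec61b at -0.26, Ssr1 at -0.047, Xbp1 at -0.17 and Erlin1 at -0.041. Relative to the median of all genes in that setting Ssr1 and Erlin1 stood at 0.21 and Xbp1 at 0.08, so these 3 did not turn. Under median scaling, Hspa5 stood at -0.40, Calr at -0.30, Dnajb9 at -0.66, Derl2 at -0.29, Sec61b at -0.36, Ssr2 at -0.47, Ern1 at -0.27, Xbp1 at -0.70 and Srprb at -0.10. Relative to all genes, Hspa5, Calr, Derl2, Sec61b, Ern1 and Srprb stood at 0.04 to 0.34 and did not turn, while Dnajb9 stood at -0.22, Ssr2 at -0.03 and Xbp1 at -0.26. With the exchanged block Hspa5 stood at -0.20, Dnajb9 at -0.039 and Xbp1 at -0.061. Hspa5 stood at -0.055 with array weights and at -0.00073 in the value table. Leaving out 1 mouse, Hspa5 ran from -0.20 to 0.12 (below 0 without wild-type replicate 2 or knockout replicate 1), Calr from -0.22 (without knockout replicate 1) to 1.05, and Dnajb9 from -0.32 to 0.42 and Xbp1 from -0.13 to 0.26 (both below 0 without wild-type replicate 2 or knockout replicate 2). Without wild-type replicate 1, Hsp90b1 stood at -0.15 and Creld2 at -0.075. Ern1 stood at 0.14 without wild-type replicate 2, and Sec61b at 0.20 without knockout replicate 1. The cause was not tested.

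Deviations from the group means correlated at -0.05, -0.05 and 0.04 between same-numbered wild-type and knockout mice. The knockout deviations were taken with the array of knockout replicate 3 included, which stood apart. This check therefore cannot decide whether the numbers pair the mice, and the main fit left the mice unpaired. With the replicate block 0 members were called, with a median log2 change of 0.02, and 13 probes were higher and 34 lower. With the pairing of wild-type replicates 2 and 3 exchanged the member median was -0.06.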

Other observations

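Some probes carry older names of members and were not counted among them. Of these, a probe listed as 1700015E05Rik for Pdia6 had a log2 change of 0.37 ± 0.19 (SE; limma adjusted p = 0.478), where the probe under the current symbol stood at -0.66. It lay near background, with deposited signals of 90.1 to 114 on the 5 arrays, and it was detected on 2 of 3 wild-type arrays. A probe listed as 1300013B24Rik for Ero1lb stood at -0.33 ± 0.15 (SE; limma adjusted p = 0.443), but it was detected on the 3 wild-type arrays and on 0 of the 2 knockout arrays, so its knockout level is only a bound. These probes were looked up after the data were seen.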
